A study of Mus musculus with 8 samples.

Results

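The genes described here encode the enzymes that cut, shed and crosslink the extracellular matrix: the matrix metalloproteinases (Mmp), their tissue inhibitors (Timp), the membrane proteases of the Adam family, the secreted Adamts proteases with their non-catalytic Adamtsl relatives, and the lysyl oxidases (Lox and Loxl1 to Loxl4). They were taken by symbol from a table of mouse kidney RNA with 77981 genes. The table held 89 of them, and the 37 whose mean over all libraries reached 1 TPM were compared between genotypes. TPM is a transcript level scaled for gene length and to an equal total per library. The labels give the cell type as IMCD, the inner medullary collecting duct, and all 8 libraries come from mice given tamoxifen, a drug that activates some inducible forms of Cre. The 4 libraries of the control group have the genotype AVP-flox, a floxed allele in which loxP sites stand in the first intron and beyond the 3′ end of the vasopressin gene Avp. The other 4 have the genotype AVP-flox;Cre, the same allele with a Cre recombinase, in a series described as an inducible Avp knockout line. The sources used here do not give the promoter that drives Cre, the tamoxifen dose and interval, or the age of the mice. No group carries Cre without floxed Avp or lacks tamoxifen, so effects of Cre and of the loss of Avp cannot be told apart. The labels do not say that replicates are separate animals, and p-values measure the spread between these libraries, which may be technical.

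Matrix proteases are made as inactive precursors, and part of their control lies after transcription, in removal of the propeptide and in inhibition by TIMPs. Mmp2, a gelatinase that cuts basement membrane collagen, is activated at the cell surface by the membrane protease Mmp14 with Timp2 as the bridge between them. Adam10 and Adam17 release growth factors, cytokines and Notch fragments from cell surfaces, while several Adamts proteases cut versican and other proteoglycans. Lysyl oxidases crosslink collagen and elastin after secretion. In the renal medulla these proteins act on the basement membrane of the tubules and on the interstitium around them.

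Avp itself (ENSMUSG00000037727), which is transcribed in the hypothalamus, stood at 0 to 0.24 TPM in AVP-flox and 0 to 0.27 TPM in AVP-flox;Cre. These kidney values cannot show whether it was deleted. All 16 markers of collecting duct cells had a mean above 1 TPM, and they summed to 21600 to 25400 TPM in AVP-flox and 13700 to 15910 TPM in AVP-flox;Cre, and Aqp2 alone went from a mean of 15995 to 6304 TPM. Of the 16, 6 rose (Cdh16, Epcam, Krt18, Slc14a2, Scnn1b and Scnn1g), 4 fell (Aqp2, Aqp3, Aqp4 and Elf5) and 6 did not pass, with a median log2 fold change of 0.16. Among all tested genes 13.1% rose and 14.2% fell. Endothelial markers were also high in every library, at 2700 to 2789 and 2407 to 2520 TPM, and thick limb and distal markers ran from 396.6 to 2408 and from 615.8 to 929.8 TPM, so the material was not collecting duct alone. Fewer genes were detected in AVP-flox;Cre 2 (33576 with a value above 0) than elsewhere (50951 to 58232), and 17 of the 89 genes were listed at 0 in it, compared with 2 to 8 in each of the others. Of the 20 compared genes with a mean below 5 TPM, AVP-flox;Cre 2 held the lowest value of its group for 10 and AVP-flox;Cre 4 the highest for 13. Judged by Xist and Y-linked genes, AVP-flox 1 and AVP-flox;Cre 1 and 2 carried a male pattern and the other 5 libraries a female one. TPM does not keep the number of reads, so the depth behind each value is unknown.

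Lox, Mmp2, Mmp14, Adamts15 and Adam1a rose in AVP-flox;Cre, while Loxl4 and Adam15 fell. No TIMP and no Adamts-like gene passed the test (0 of 8, also at an unadjusted p under 0.05), and neither did the sheddase genes Adam10 and Adam17. In all, 7 of 37 genes passed (18.9%), with 5 higher and 2 lower. Over all 19043 genes tested, 27.3% passed, with 13.1% higher and 14.2% lower, and the order of these shares turned in other fits. With sex pattern as a covariate 32.4% of these genes passed against 27.3% of all, and with no filter on low genes 5.62% (5 of 89) against 5.04%. The latter is not a like comparison, since 37 of the 89 genes but 19043 of all 67580 genes reached a mean of 1 TPM. The test was limma on log2(TPM + 1) with Benjamini-Hochberg adjustment over all tested genes and a threshold of 0.05. The groups did not overlap for 7 of the 37 genes, 5 higher and 2 lower, against 29.5% of all tested genes, 14.7% higher and 14.9% lower. For 3 of the 37 genes only 1 genotype reached a mean of 1 TPM (AVP-flox;Cre for Adamts7, AVP-flox for Mmp12 and Timp1), so counts over the 37 genes describe them and support nothing. The median log2 fold change of the 37 genes was 0.07, beside -0.01 for all tested genes.

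**Figure D1:**
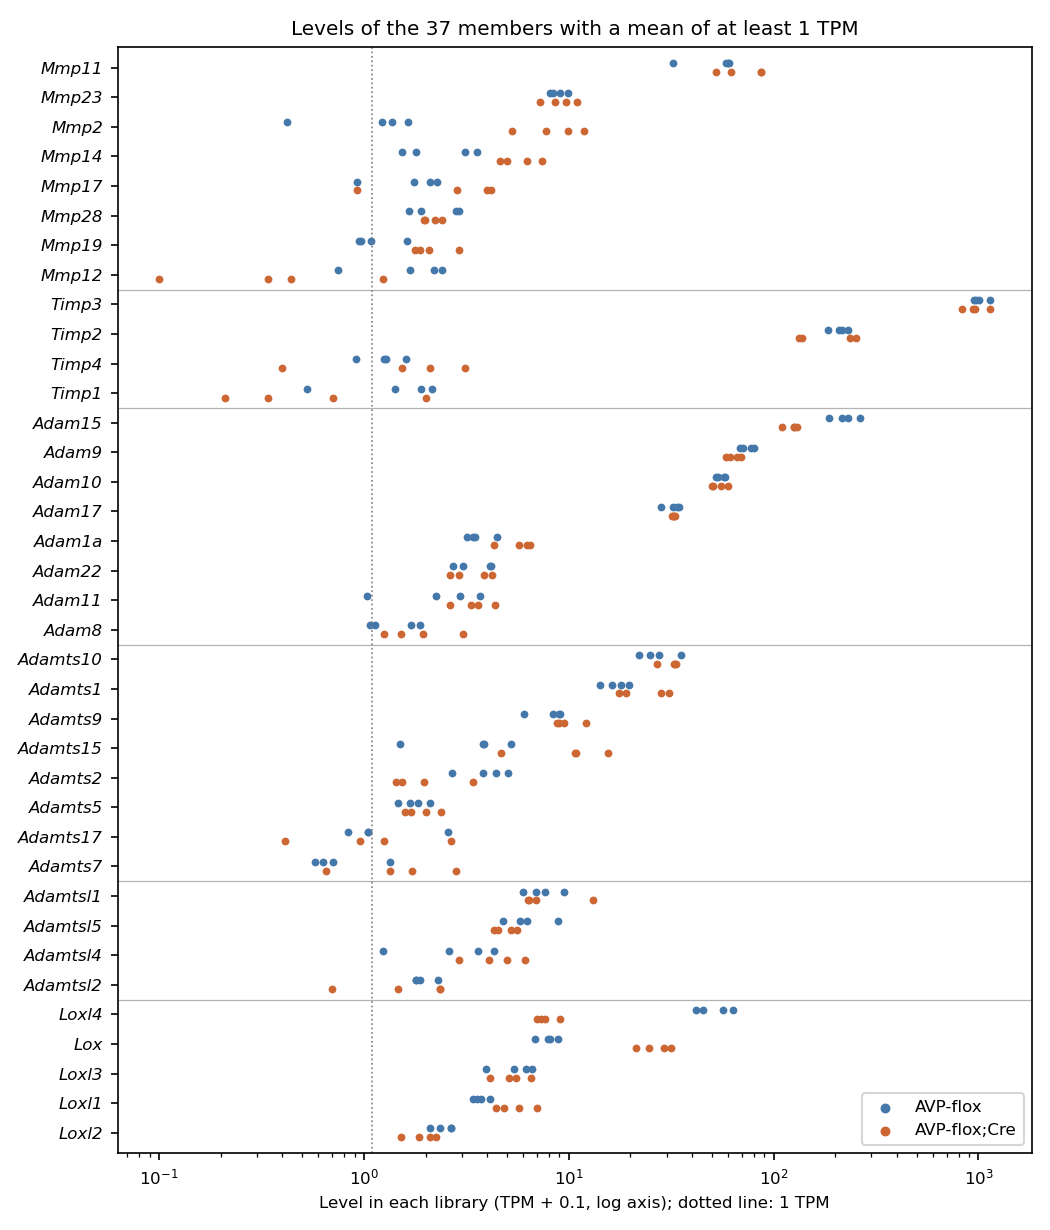
Level of each of the 37 genes in each library, as TPM + 0.1 on a log axis, grouped by family with AVP-flox points above AVP-flox;Cre points. Loxl4 and Adam15 lie lower and Lox, Mmp2 and Mmp14 higher in every AVP-flox;Cre library, while Timp3, at 830.55 to 1144.10 TPM, is the most abundant gene and its groups overlap.

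**Figure D2:**
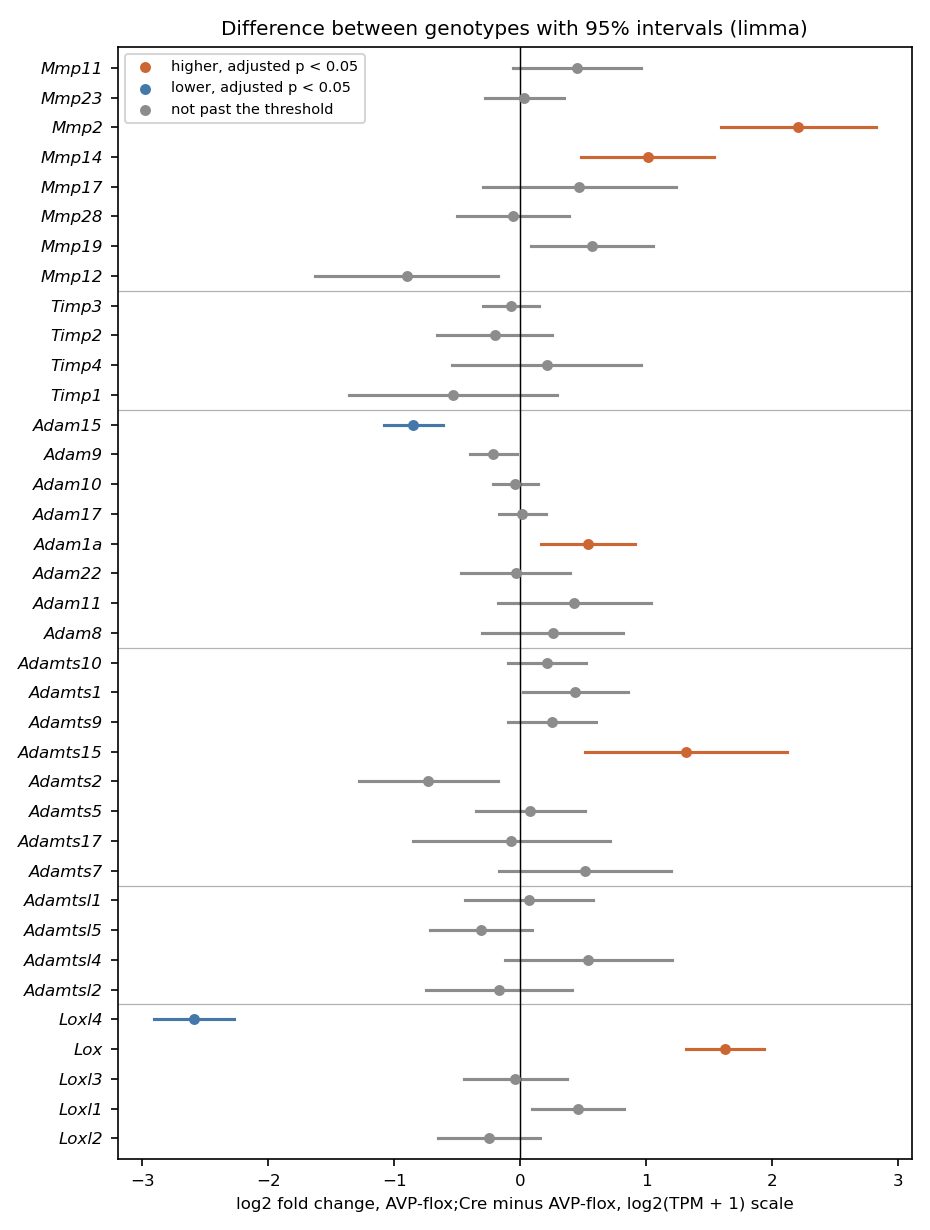
Log2 fold change of each gene, AVP-flox;Cre minus AVP-flox on the log2(TPM + 1) scale, as points with 95% intervals from limma. The 5 genes past the threshold on the right run from 0.54 (Adam1a) to 2.21 (Mmp2), and those on the left are Adam15 (-0.85) and Loxl4 (-2.59).

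The RefSeq promoter table (GRCm38.p6) held 23 of the 37 genes, 4 of the 7 changed ones among them. The 250 bases before the annotated start are printed for these 4, of which Loxl4 and Adam15 fell and Mmp14 and Adam1a rose, to show what lies upstream of each. Capitals mark matches on either strand to the GC box (GGGCGG), the CCAAT box (CCAAT) and the core of the hypoxia response element (ACGTG). In Mmp14 the CCAAT match nearest the start overlaps a GC box.
Loxl4, chr19:42612807-42613056, minus strand: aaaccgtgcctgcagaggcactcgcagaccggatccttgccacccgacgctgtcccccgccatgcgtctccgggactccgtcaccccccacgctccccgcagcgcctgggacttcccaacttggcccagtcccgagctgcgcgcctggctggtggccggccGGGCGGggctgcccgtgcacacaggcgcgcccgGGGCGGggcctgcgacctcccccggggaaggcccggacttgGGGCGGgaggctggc
Adam15, chr3:89350029-89350278, minus strand: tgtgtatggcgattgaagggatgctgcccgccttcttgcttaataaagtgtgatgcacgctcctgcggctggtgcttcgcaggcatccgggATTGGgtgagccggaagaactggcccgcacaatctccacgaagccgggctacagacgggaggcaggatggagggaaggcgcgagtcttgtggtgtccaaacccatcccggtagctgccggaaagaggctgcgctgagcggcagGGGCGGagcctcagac
Mmp14, chr14:54431348-54431597, plus strand: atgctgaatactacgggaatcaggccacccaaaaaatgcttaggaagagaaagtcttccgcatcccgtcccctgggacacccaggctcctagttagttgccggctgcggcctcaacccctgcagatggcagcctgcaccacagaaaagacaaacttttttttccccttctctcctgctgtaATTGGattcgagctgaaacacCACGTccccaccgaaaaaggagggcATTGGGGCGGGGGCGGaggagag
Adam1a, chr5:121521696-121521945, minus strand: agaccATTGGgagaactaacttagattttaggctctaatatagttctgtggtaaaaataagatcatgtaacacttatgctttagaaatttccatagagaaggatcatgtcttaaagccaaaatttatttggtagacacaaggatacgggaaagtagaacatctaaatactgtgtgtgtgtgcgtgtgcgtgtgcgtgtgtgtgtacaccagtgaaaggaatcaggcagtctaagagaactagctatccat
The window of Loxl4 holds 3 GC boxes and 76.0% GC, that of Adam15 1 GC box, 1 CCAAT box and 62.0% GC, and that of Mmp14 2 GC boxes, 2 CCAAT boxes, 1 hypoxia core and 55.2% GC. The window of Adam1a holds 1 CCAAT box, 0 GC boxes and 38.0% GC. The median window of the table has 52.4% GC. GC boxes were found in 17 of 25 windows of the 37 genes and in 32.7% of all 32851 windows. CCAAT boxes were found in 8 and in 33.8%, and the hypoxia core in 4 and in 16.6%. The AP-1 element (TGANTCA), known from several metalloproteinase promoters, was found in 1 window, that of Mmp12, and in 6.75% of all windows. The TATA box (TATAAA) was found in 2 windows of these genes (Adamtsl2 and Adamts1) and in 12.4% of all. The palindromic consensus of the estrogen response element was in 0 of the 25 windows and in 0.0639% of all.

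The lysyl oxidase family changed its composition between the genotypes. Loxl4 (ENSMUSG00000025185), a secreted lysyl oxidase with scavenger receptor domains, stood at 63.36, 56.44, 41.83 and 44.93 TPM in AVP-flox 1 to 4 and at 8.94, 7.20, 7.56 and 6.87 TPM in AVP-flox;Cre 1 to 4. Every AVP-flox;Cre value lay far below the lowest control value. Its mean fell 6.76-fold, from 51.6 ± 10.03 to 7.64 ± 0.91 TPM (SD, n = 4 per group), with a log2 fold change of -2.59 (SE 0.14, limma adjusted p = 6.70e-06). Lox (ENSMUSG00000024529), the founding member of the family, stood at 7.86, 6.76, 7.96 and 8.80 TPM in AVP-flox and at 21.11, 31.37, 29.10 and 24.44 TPM in AVP-flox;Cre. Its groups did not overlap either, in the opposite direction. Lox rose 3.38-fold, from 7.85 ± 0.84 to 26.5 ± 4.6 TPM (log2 fold change 1.63, SE 0.14, limma adjusted p = 5.66e-05). In exact permutation tests both genes reached p = 0.0286, the lowest two-sided value possible with 4 against 4.

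Since TPM is scaled for length, levels can be added within the family. Loxl4 made up 68.0% to 77.4% of the family's summed TPM in AVP-flox and 14.1% to 21.7% in AVP-flox;Cre, while Lox went from 9.27% to 13.3% up to 51.3% to 61.7%. The ratio of Loxl4 to Lox was 5.11 to 8.35 in AVP-flox and 0.230 to 0.423 in AVP-flox;Cre. The family's sum was 61.09 to 83.33 TPM in AVP-flox and 41.16 to 51.15 TPM in AVP-flox;Cre, so the rise of Lox did not make up in TPM for the fall of Loxl4. Loxl1, linked to elastic fibres, was at 3.32 to 4.01 TPM in AVP-flox and 4.29 to 6.93 TPM in AVP-flox;Cre. Its groups did not overlap, but its difference missed the threshold (log2 fold change 0.46, SE 0.16, limma adjusted p = 0.0641). Loxl3 (3.84 to 6.49 TPM in AVP-flox and 4.03 to 6.46 TPM in AVP-flox;Cre) and Loxl2 (2.00 to 2.57 and 1.41 to 2.14 TPM) overlapped between the groups, with log2 fold changes of -0.04 and -0.25.

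**Figure D3:**
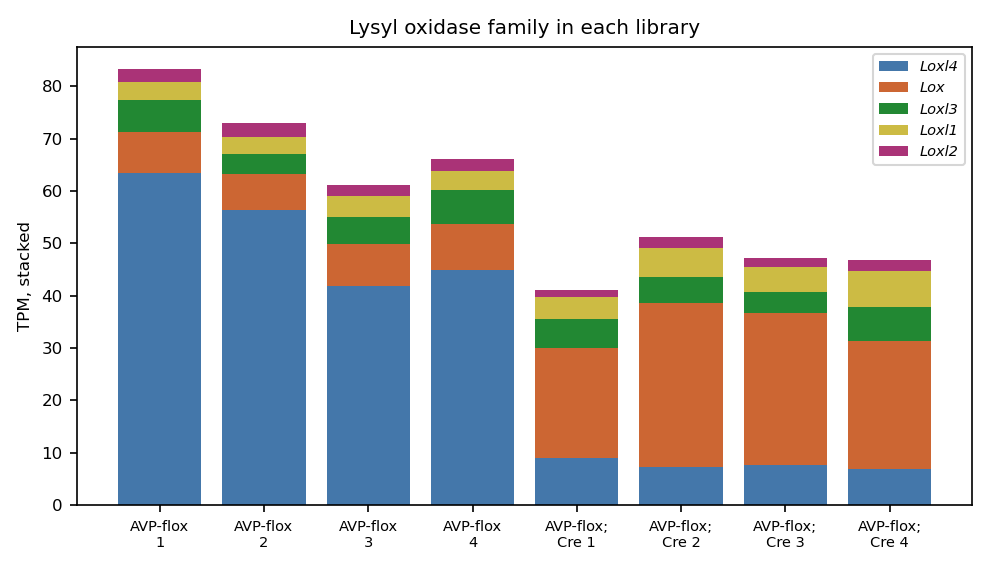
Stacked TPM of the 5 lysyl oxidase genes in each library, AVP-flox on the left and AVP-flox;Cre on the right. Loxl4 is the tallest segment in all 4 AVP-flox libraries (41.83 to 63.36 TPM) and Lox in all 4 AVP-flox;Cre libraries (21.11 to 31.37 TPM).

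Among the metalloproteinases, Mmp2 and its membrane activator Mmp14 rose, and 6 of the 8 compared genes did not pass. The share that passed, 25.0%, was near the 27.3% of all tested genes. Mmp2 (ENSMUSG00000031740) stood at 1.27, 0.32, 1.55 and 1.13 TPM in AVP-flox and at 7.61, 5.20, 9.82 and 11.77 TPM in AVP-flox;Cre. The lowest AVP-flox;Cre library, replicate 2, was still above every control. The log2 fold change was 2.21 (SE 0.28, limma adjusted p = 0.000437, exact permutation p = 0.0286), and without any single library it stayed between 2.00 and 2.40. Mmp14 (ENSMUSG00000000957), a transmembrane collagenase, stood at 3.01, 1.43, 1.69 and 3.45 TPM in AVP-flox and at 6.13, 4.53, 4.89 and 7.31 TPM in AVP-flox;Cre. Its groups did not overlap, and it rose 2.39-fold, from 2.40 ± 0.99 to 5.72 ± 1.27 TPM (log2 fold change 1.01, SE 0.24, limma adjusted p = 0.0111). The call of Mmp14 ended when AVP-flox 2 was left out together with AVP-flox;Cre 2 and 4 (log2 fold change 0.83, adjusted p = 0.0932, range over 22 alternatives 0.00643 to 0.0932). Over all genes that smaller fit called 1378 higher and 1182 lower, beside 2491 and 2713 with all 8 libraries. AVP-flox;Cre 2 and 4 are the libraries with the fewest and the most genes detected.

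Mmp11, stromelysin-3, was the most abundant metalloproteinase and supplied 68.8% of the family's summed TPM. It stood at 32.33, 58.26, 60.09 and 60.39 TPM in AVP-flox and at 61.51, 52.49, 86.46 and 87.15 TPM in AVP-flox;Cre. The groups overlapped and the difference did not pass (log2 fold change 0.45, 95% interval -0.06 to 0.96, limma adjusted p = 0.172). In GENCODE M21 exons of Mmp11 share bases with Chchd10 on the other strand, which had a mean of 685.6 TPM. Reads of these genes may not be separable. Mmp19 was at 0.85 to 1.53 TPM in AVP-flox and 1.67 to 2.82 TPM in AVP-flox;Cre, with no overlap, but its adjusted p was 0.0777 with limma. Exons of Mmp19 share bases with Tmem198b on the other strand (mean 9.83 TPM), so its reads may not be separable either. Mmp12, the macrophage elastase, was at 0.65 to 2.30 TPM in AVP-flox and 0 to 1.14 TPM in AVP-flox;Cre (means 1.66 ± 0.74 and 0.43 ± 0.49 TPM), a difference that missed the threshold (log2 fold change -0.90, SE 0.33, limma adjusted p = 0.0655). Mmp19, Mmp12 and Loxl1 were chosen for mention after their values were seen. Mmp23 (7.16 to 10.88 TPM over all libraries), the epithelial Mmp28 (1.56 to 2.80 TPM) and the glycolipid-anchored Mmp17 (0.82 to 4.07 TPM) had log2 fold changes of 0.03, -0.06 and 0.47.

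The inhibitors far outweighed the metalloproteinases in transcript level. Summed TPM of the Timp family was 1159 to 1359 in AVP-flox and 970 to 1281 in AVP-flox;Cre, against 52.47 to 85.63 and 76.80 to 132.1 for all Mmp genes. Timp3, the inhibitor that stays bound to the matrix, gave 83.1% of the Timp sum. It stood at 1010.88, 970.67, 947.95 and 1142.52 TPM in AVP-flox and at 964.74, 830.55, 942.72 and 1144.10 TPM in AVP-flox;Cre, with overlap. Its log2 fold change was -0.07, with a 95% interval from -0.30 to 0.15 (limma adjusted p = 0.629). Timp2, the soluble inhibitor that also takes part in Mmp2 activation, stood at 184.24, 231.51, 207.96 and 215.07 TPM in AVP-flox and at 252.30, 136.85, 234.61 and 133.59 TPM in AVP-flox;Cre. Replicates 1 and 3 of the latter lay above all controls and replicates 2 and 4 below all of them. Timp2 did not pass (log2 fold change -0.20, 95% interval -0.66 to 0.25, limma adjusted p = 0.507, range over 23 alternatives 0.105 to 0.862). With AVP-flox 2 left out together with AVP-flox;Cre 2 and 4 the log2 fold change was 0.27 (limma adjusted p = 0.105). That fit drops both AVP-flox;Cre libraries that lay below all controls, so the turn of sign follows from the choice of libraries. The first 300 nt of the longest annotated Timp2 transcript hold 73.0% GC. With a correction of each library for its trend with GC content the log2 fold change of Timp2 was -0.08 (limma adjusted p = 0.771). Timp1, which many injured tissues induce, was at 0.43 to 2.04 TPM in AVP-flox and 0.11 to 1.92 TPM in AVP-flox;Cre, and Timp4 at 0.81 to 1.51 and 0.30 to 3.00 TPM. Neither passed the test.

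In the Adam family Adam15 fell, and 6 of the 8 compared genes, the sheddases among them, did not pass. Here too 25.0% passed, near the 27.3% of all tested genes. Adam15 (ENSMUSG00000028041), a membrane protease with an integrin-binding domain, was the most abundant of the family. It stood at 230.57, 263.62, 215.56 and 185.31 TPM in AVP-flox and at 110.00, 130.49, 125.78 and 125.62 TPM in AVP-flox;Cre, where every value lay below every control. Its mean fell 1.82-fold, from 224 ± 33 to 123 ± 9 TPM (log2 fold change -0.85, SE 0.11, limma adjusted p = 0.000410, exact permutation p = 0.0286). Adam10 stood at 57.19, 53.63, 57.56 and 52.42 TPM in AVP-flox and at 55.39, 49.69, 50.43 and 59.72 TPM in AVP-flox;Cre. Adam17 stood at 34.61, 33.61, 28.01 and 32.17 TPM in AVP-flox and at 33.08, 32.28, 32.39 and 31.65 TPM in AVP-flox;Cre. Their groups overlapped, with 95% intervals of the log2 fold change from -0.22 to 0.14 and from -0.17 to 0.20. Adam9, a sheddase related to Adam15, stood at 80.06, 77.77, 68.34 and 70.47 TPM in AVP-flox and at 69.21, 66.23, 58.39 and 61.48 TPM in AVP-flox;Cre and did not pass (log2 fold change -0.21, SE 0.08, limma adjusted p = 0.0817).

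The other genes of the Adam family were low. Adam1a, best known from sperm, was at 3.07, 4.36, 3.29 and 3.40 TPM in AVP-flox and at 6.17, 4.20, 5.62 and 6.40 TPM in AVP-flox;Cre, where replicate 2 overlapped the controls. It rose 1.59-fold (log2 fold change 0.54, SE 0.17, limma adjusted p = 0.0377, exact permutation p = 0.0571). The call held in 2 of the 8 fits that leave out a library and ended without AVP-flox 1, 3 or 4 and without AVP-flox;Cre 1, 3 or 4 (adjusted p 0.0775 to 0.0938, range over 22 alternatives 0.00765 to 0.106). In GENCODE M21 exons of Adam1a share bases with Gm42878 and Mapkapk5 on the same strand and with Tmem116 on the other, so its reads could be split between genes. The non-catalytic neuronal genes Adam22 (2.53 to 4.11 TPM over all libraries) and Adam11 (0.94 to 4.28 TPM), and the leukocyte gene Adam8 (0.97 to 2.95 TPM), did not pass. The summed TPM of all Adam genes was 354 to 446 in AVP-flox and 288 to 307 in AVP-flox;Cre, and Adam15 gave 49.7% of the sum over all libraries.

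Of the 8 Adamts genes compared, Adamts15, which cuts versican and aggrecan, rose and 7 did not pass. That is 12.5% past the threshold, beside 27.3% of all tested genes. Adamts15 (ENSMUSG00000033453) stood at 1.40, 3.74, 5.10 and 3.71 TPM in AVP-flox and at 10.61, 4.58, 10.69 and 15.48 TPM in AVP-flox;Cre. Replicate 2 of the latter lay within the control range and the other 3 above it. The mean rose 2.96-fold, from 3.49 ± 1.54 to 10.3 ± 4.5 TPM (log2 fold change 1.31, SE 0.36, limma adjusted p = 0.0223, exact permutation p = 0.0571). Leaving out AVP-flox;Cre 1, 3 or 4 ended the call (adjusted p = 0.0504, 0.0561 and 0.0580), as did a fit with no filter on low genes (0.0624). Its adjusted p ran from 0.00265 to 0.0624 over 23 alternatives. Adamts10, which binds fibrillin microfibrils, stood at 21.90, 27.46, 24.83 and 35.09 TPM in AVP-flox and at 32.59, 32.79, 26.89 and 33.25 TPM in AVP-flox;Cre, with overlap (log2 fold change 0.21, limma adjusted p = 0.304). Adamts1, another versican-cutting protease, stood at 14.10, 16.12, 17.84 and 19.54 TPM in AVP-flox and at 18.88, 17.40, 30.69 and 28.05 TPM in AVP-flox;Cre. It did not pass (log2 fold change 0.44, 95% interval 0.02 to 0.85, limma adjusted p = 0.109).

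Adamts2, the protease that removes the amino-terminal propeptide of procollagen, was at 4.29, 2.59, 3.71 and 4.97 TPM in AVP-flox and at 3.32, 1.33, 1.44 and 1.87 TPM in AVP-flox;Cre, and was named after its values were seen. It lay at the edge of the threshold (log2 fold change -0.73, SE 0.25, limma adjusted p = 0.0529, range over 22 alternatives 0.0188 to 0.158). With each library corrected for its trend with GC content, the log2 fold change of Adamts2 was -0.49 and its adjusted p = 0.129, and the first 300 nt of its transcript hold 78.3% GC. Adamts9 (5.95 to 12.03 TPM over all libraries), Adamts5 (1.36 to 2.29 TPM), Adamts17 (0.31 to 2.57 TPM) and Adamts7 (0.48 to 2.73 TPM) had log2 fold changes from -0.07 to 0.51 and did not pass. The Adamts-like proteins lack a protease domain and bind the same microfibrils. Adamtsl1 (5.85 to 13.03 TPM over all libraries), Adamtsl5 (4.20 to 8.76 TPM), Adamtsl4 (1.14 to 6.04 TPM) and Adamtsl2 (0.60 to 2.26 TPM) overlapped between genotypes, with log2 fold changes from -0.31 to 0.54.

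The remaining 52 genes had a mean below 1 TPM, 18 of them below 0.1 TPM, and no single library exceeded 2.68 TPM. Just above the limit were Mmp12 (mean 1.04 TPM) and Timp1 (1.06 TPM), and just below it Adamts6 (0.936 TPM) and Adam4 (0.891 TPM). The gelatinase Mmp9 was at 0.06 to 0.44 TPM in AVP-flox and 0.15 to 0.80 TPM in AVP-flox;Cre. Matrilysin, the epithelial Mmp7, was at 0 to 0.10 and 0.02 to 0.47 TPM. The collagenase Mmp13 was at 0.01 to 0.35 TPM over all libraries, and the collagenase Mmp8 and the von Willebrand factor protease Adamts13 had means of 0.0838 and 0.0663 TPM. Fitted without a filter, 0 of the 52 passed with limma (3 at an unadjusted p under 0.05), beside 5.04% of the 67580 genes then tested. That share includes the genes above a mean of 1 TPM, so it is not a like comparison. For 3 of the 52 the groups did not overlap, Adam19 higher and Adam21 and Mmp3 lower in AVP-flox;Cre. Of all 48537 genes above 0 but below that mean, 2.04% had groups that did not overlap, 1.18% higher and 0.853% lower.

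Some levels moved with the sex pattern of the libraries, which the groups do not share evenly. For Mmp11 the library of male pattern in AVP-flox had 32.33 TPM and those of AVP-flox;Cre 52.49 and 61.51 TPM, while the libraries of female pattern had 58.26 to 60.39 and 86.46 to 87.15 TPM. The AVP-flox;Cre values were thus above the AVP-flox values within each pattern. With sex pattern as a covariate, Mmp11 had a log2 fold change of 0.63 (SE 0.08, limma adjusted p = 0.00109, range over 23 alternatives 0.00109 to 0.436). Adamts1 had 14.10 against 17.40 and 18.88 TPM in the male pattern and 16.12 to 19.54 against 28.05 to 30.69 TPM in the female pattern (log2 fold change 0.57, SE 0.11, limma adjusted p = 0.00639, range over 23 alternatives 0.00639 to 0.315). In that fit 12 of the 37 genes passed, 8 higher and 4 lower, beside 27.3% of all genes, 13.7% higher and 13.6% lower. The 7 genes named above were among them, joined by Mmp11, Adamts1 and Adamtsl4 among the higher and by Adam9 and Adamts2 among the lower. The male pattern in AVP-flox rests on 1 library, and whether the genotype difference differs between patterns was not tested.

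**Figure D4:**
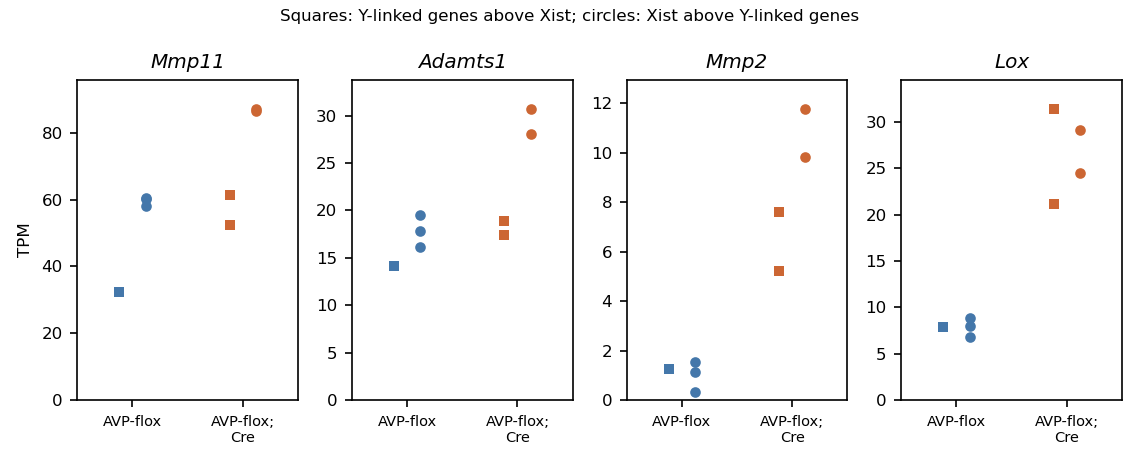
TPM of Mmp11, Adamts1, Mmp2 and Lox in each library, with squares for libraries of male pattern and circles for those of female pattern. Within each pattern the AVP-flox;Cre points lie above the AVP-flox points, and for Mmp11 the female pattern is higher in both genotypes (58.26 to 60.39 against 32.33 TPM, and 86.46 to 87.15 against 52.49 to 61.51 TPM).

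Genes that work with these enzymes were read from lists drawn up with earlier results of these data known, and their counts stand beside 13.1% higher and 14.2% lower (27.3% in all) among all tested genes. Of 52 tested matrix substrates and crosslinking partners, 25 rose, 7 fell and 20 did not pass. Their median log2 fold change was 0.48, beside -0.01 for all tested genes. Sparc, a collagen-binding matricellular protein, rose from 89.9 ± 4.1 to 220 ± 38 TPM, and the proteoglycan gene Bgn from 165 ± 21 to 340 ± 31 TPM. The laminin gene Lamb3 fell from 151 ± 13 to 63.4 ± 3.6 TPM and the prolyl hydroxylase gene P4ha2 from 110 ± 8 to 63.0 ± 3.3 TPM. All 4 had limma adjusted p between 1.57e-05 and 0.000119. Vcan, which encodes versican, fell (log2 fold change -0.77, limma adjusted p = 0.00875). The fibrillar collagen gene Col3a1 and the elastin gene Eln, substrates of lysyl oxidases, did not pass (log2 fold changes 0.37 and 0.40). The type I collagen genes were listed with the fibroblast markers instead. Of these, Col1a2 rose from 26.5 ± 3.2 to 68.1 ± 5.6 TPM (log2 fold change 1.33, limma adjusted p = 3.38e-05) and Col1a1 did not pass (-0.08).

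In the list of plasmin-type and other matrix proteolysis, 12 of 23 tested genes rose, 3 fell and 8 did not pass (median 0.37). Plat, the tissue plasminogen activator, fell from 1527 ± 345 to 625 ± 56 TPM (log2 fold change -1.26, limma adjusted p = 0.000286). The serine protease genes Prss23, Habp2 and Htra3 rose, with log2 fold changes of 1.21, 1.31 and 1.39. Reck, a membrane inhibitor of metalloproteinases, rose by 0.37, and Furin, which activates Mmp11, Mmp14 and the Adam proteases, fell by 0.30 on the log2 scale. Of 28 tested partners and substrates of Adam proteases, 7 rose, 1 fell and 20 did not pass (median 0.05), a share called near the 27.3% of all tested genes. Rhbdf1, a rhomboid-like protein that brings Adam17 to the cell surface, rose from 60.1 ± 5.0 to 98.5 ± 6.2 TPM, and the shed growth factor gene Btc from 6.86 ± 1.09 to 17.7 ± 0.9 TPM. The shed chemokine gene Cx3cl1 (0.79) and the receptor gene Notch3 (0.89) rose too. Among 10 tested von Willebrand, fibrillin and TGF-beta partners of the Adamts proteins, 7 rose and 3 did not pass (median 0.85), led by Vwf (1.99), Mfap2 (1.04), Tgfb2 (1.41) and F8 (1.17). Of 17 tested transcription factors known from protease promoters, 4 rose, 4 fell and 9 did not pass. Esr1 (5.67), Ets1 (0.53) and Epas1 (0.61) were among the higher and Rela (-0.60) among the lower. Esr1 encodes an estrogen receptor, and whether reads of a tamoxifen-activated Cre, present only in AVP-flox;Cre, were counted as Esr1 was not tested.

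Markers of other cells moved in the same libraries, and in bulk RNA more cells of a type and more RNA per cell cannot be told apart. The marker counts stand beside 13.1% higher and 14.2% lower (27.3% in all) among all tested genes. Of 12 tested markers of fibroblasts, pericytes and smooth muscle, cells that commonly express Mmp2, Mmp14 and Lox, 6 rose and 6 did not pass. Their summed level was 178.4 to 247.8 TPM in AVP-flox and 384.5 to 503.5 TPM in AVP-flox;Cre. Pdgfra, Tcf21 and Col1a2 rose, with log2 fold changes of 1.06, 1.34 and 1.33, as did Acta2 (0.87), Tagln (1.09) and Myh11 (0.73). Pdgfrb (0.24), Dcn (0.15), Col3a1 (0.37), Col1a1 (-0.08), Rgs5 (0.47) and Gucy1a1 (0.24) did not pass. Lum, Cnn1 and Postn were below a mean of 1 TPM. The part of these cells in the rises of Mmp2, Mmp14 and Lox was not tested. Of 10 tested macrophage and leukocyte markers, 1 rose (Csf1r) and 9 did not pass, with sums of 135.6 to 223.1 and 155.4 to 251.8 TPM. Papillary surface and urothelial markers summed to 1801 to 2838 TPM in AVP-flox and 5024 to 5783 TPM in AVP-flox;Cre, with 6 of 9 higher and 1 lower. Psca alone stood at 1666.79 to 2593.25 and 4467.52 to 5084.23 TPM. Intercalated cell markers summed to 251.5 to 378.4 and 365.1 to 485.6 TPM, with 4 of 9 higher. The part of papillary surface, urothelial and intercalated cells in the falls of Loxl4 and Adam15 and in the rises was not tested. Endothelial markers had 5 of 10 higher and 2 lower. Of 8 tested thick limb and distal markers, 1 rose (Cldn16) and 7 did not pass, but the AVP-flox libraries were split. AVP-flox 1, 3 and 4 held 576.66 to 682.39 TPM of Slc12a1. AVP-flox 2 had 98.26 TPM, and the AVP-flox;Cre libraries spanned 97.29 to 189.66 TPM. For Umod and Kcnj1, AVP-flox 1, 3 and 4 lay above every AVP-flox;Cre library and AVP-flox 2 below all of them. The part of thick limb cells in the genotype differences was not tested. Proximal tubule markers had 0 of 12 past the threshold with limma (0 also at an unadjusted p under 0.05), with sums of 641.4 to 1199 and 760.1 to 951.9 TPM. Of these sums, Aqp1 alone gave 455.02 to 585.92 and 567.48 to 667.19 TPM.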

How the data were processed

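The authors deposited TPM values per mouse gene, 1 column per library and 78298 identifiers, with column sums equal to the nominal TPM total within 2.04. Per the labels, cDNA came from the SMART-Seq HT kit and libraries from Nextera XT. The submitters' processing notes name STAR and RSEM but no versions, and the genome build is not given in the sources used here. Columns WT and KO were read as AVP-flox and AVP-flox;Cre by replicate number. Identifiers sharing a symbol (312 symbols) were summed, and 21883 without a symbol kept their identifier.

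Genes averaging 1 TPM or more were fitted as log2(TPM + 1) in limma 3.58.1 (R 4.3.3) with a mean-variance trend (two-sided), and p-values were adjusted over 19043 genes by Benjamini-Hochberg. Fold changes on this scale understate changes of low genes. Folds are ratios of mean TPM. Single genes were also compared by an exact permutation test of mean TPM. The genes and lists were chosen with earlier results of these data known. Genes past the threshold, and those not past it with a mean of at least 10 TPM, are given in every library, others by range, and from each list of working partners up to 4 past the threshold with the smallest adjusted p. Other genes were named after their values were seen.

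Alternatives were other pseudocounts, filters, scalings and variance models, a replicate block, sex pattern as a covariate, a correction for GC content in the first 300 nt of the longest GENCODE M21 transcript (87.1% of tested genes matched), and libraries left out. In GENCODE M21, 15 of the 37 genes share exon bases with another gene. Use of strand is not stated. Reads of Timp3 and Syn3, Adam17 and Iah1, Mmp11 and Chchd10, Mmp19 and Tmem198b, or Loxl3 and Htra2 may therefore not be separable.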

Additional observations from a re-analysis of the deposited data

Results flagged for a closer look

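In 4 of 74 groups of 4 libraries, a level lay far from the other 3 (its gap to the nearest, divided by the group's range, exceeded Dixon's critical value), a criterion that chance meets in about 5% of groups. Mmp11 was at 32.33 TPM in AVP-flox 1, the AVP-flox library of male pattern, against 58.26 to 60.39 TPM in the other AVP-flox libraries. Adamtsl1 was at 13.03 TPM in AVP-flox;Cre 4 against 6.23 to 6.78 TPM. Adamts10 was at 26.89 TPM in AVP-flox;Cre 3 against 32.59 to 33.25 TPM, and Adamts17 at 2.47 TPM in AVP-flox 2 against 0.74 to 0.95 TPM.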

How the results depend on the processing

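Of the 7 changed genes, Loxl4, Lox, Mmp2 and Adam15 passed in every alternative that tested them (22 for Mmp2 and 23 for the others), and no called gene changed sign. Without the filter on low genes, 3409 of all genes and 3 higher genes of these families passed, and with a filter at 5 TPM 4 passed, 2 of them higher. With sex pattern as a covariate 12 passed, 8 higher and 4 lower, and with quantile normalization 4 were lower. Leaving out AVP-flox 2 together with AVP-flox;Cre 2 and 4 left 2560 genes past the threshold. With each library left out in turn, 5 to 9 of these genes passed, 3 to 7 higher and 2 to 4 lower, and 4006 to 4767 of all genes. The lower count reached 4 without AVP-flox;Cre 1, and the higher count fell to 3 without AVP-flox;Cre 3 or 4 and reached 7 without AVP-flox;Cre 2. The causes were not tested. Of the 30 genes not past the threshold, 21 did not pass in any alternative. Scaling moved the median of all genes by less than 0.1. The labels name no link between same-numbered libraries beyond the number, and their deviations correlated by 0.00 to 0.09. A replicate block gave 8 of these genes and 4431 of all genes, without Adam1a (adjusted p = 0.0985) and with Adamts1 (0.0476) and Adamts2 (0.0479) added. The depth is unknown, and values near 1 TPM are the least certain.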

Other observations

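Adam22 and Adam11, proteins without protease activity, are known in the nervous system as receptors of the secreted LGI proteins. Lgi3, of that ligand family, stood at 0.65 to 1.06 TPM in AVP-flox and 25.76 to 34.50 TPM in AVP-flox;Cre (log2 fold change 3.99, SE 0.14, limma adjusted p = 1.45e-06). Lgi1, Lgi2 and Lgi4 had means of 0.380, 0.0325 and 0.289 TPM. Adam22 and Adam11 themselves had log2 fold changes of -0.04 and 0.43 and did not pass, and Adam23, the other receptor gene of this kind, had a mean of 0.594 TPM.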
